A study of Mus musculus with 53 samples.

Results

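The levels of 10 genes were followed across the laser-captured hypothalamic libraries of the study: Nrgn, Camk2a, Camk2n1, Gda, Nptx1, Slc17a7, Slc17a6, Lamp5, Tcf7l2 and Prkcd. They were grouped as postsynaptic calcium genes and markers of excitatory neurons of the forebrain, and not every member is specific to such neurons. They make up 10 of the 53379 genes in the count tables and were selected on values measured in these libraries, mainly the levels in the paraventricular nucleus (PVN) of chow-fed mice. Differences in that nucleus between chow-fed genotypes, and between diets in wild-type males, are therefore given as a description with no test.

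RNA-seq was performed on the PVN and the arcuate nucleus (ARC), cut from brain sections by laser, of C57BL/6 mice. Nnat+/-p mice carry a null allele of the imprinted gene Nnat inherited from the father and were compared with Nnat+/+ (wild-type) mice. Chow-fed Nnat+/-p mice were split by labelled body weight into non-obese and obese animals, with limits of 35 g and 37 g in males and 25 g and 30 g in females, and further males were fed a 45% high fat diet (HFD). The labels call the mice adult, and the collection protocol names an age of 13 to 14 weeks.

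The deletion is present from conception in all tissues, so no group separates an effect in these nuclei from one elsewhere in the body. The female PVN gave 4 wild-type, 3 non-obese and 3 obese Nnat+/-p libraries, all on chow. The male PVN gave 3, 3 and 4 chow libraries in the same order, with 6 wild-type and 3 Nnat+/-p libraries on HFD. The male ARC gave 2, 4 and 4 chow libraries and then 6 wild-type and 4 Nnat+/-p libraries on HFD. The labels do not state which libraries share an animal or a litter. Labelled weights recur between the male PVN and ARC, so both nuclei may come from the same mice. Libraries 39 and 40 of the non-obese Nnat+/-p ARC share a weight of 34.3 g, as do libraries 1 and 2 of the female wild-type PVN at 24.1 g, and each pair may be 1 mouse. P-values measure the spread between these libraries only.

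Nrgn encodes neurogranin, a postsynaptic protein that holds calmodulin while calcium is low and releases it when calcium enters the spine. The freed calmodulin activates the kinase whose alpha subunit is encoded by Camk2a, and Camk2n1 encodes an inhibitor of that kinase. Glutamate is loaded into synaptic vesicles by VGLUT1 (Slc17a7), typical of the cortex and hippocampus, or by VGLUT2 (Slc17a6), typical of the thalamus and hypothalamus. The PVN and ARC lie close to other neuron groups, and the ventromedial hypothalamus (VMH), which is rich in VGLUT2 neurons, borders the ARC.

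Totals ran from 1479953 to 30228973 counts over the 49 libraries used. Nnat, the targeted gene, was at 224 to 584 CPM (counts scaled to the library total, without further factors) in wild-type and at 0.268 to 13.7 CPM in Nnat+/-p libraries. Libraries 5, 7 and 35 were left out for low totals, and library 32 because its label and its table name different nuclei. Below, CPM are scaled by TMM factors within each of the 3 count tables, so levels set side by side across tables are approximate.

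One used library went against its label. Library 15, a chow-fed wild-type male PVN, summed to 10.9 CPM over 5 PVN markers (Avp, Oxt, Sim1, Crh and Trh), against 157 to 2130 CPM in the other 18 male PVN libraries. Its Sim1, a transcription factor that marks PVN neurons, was at 0.544 CPM (16.6 to 186 in the others). In the opposite direction, its 3 VMH markers (Nr5a1, Fezf1 and Sox14) summed to 123 CPM against 0.61 to 18.1, and its ARC markers to 155 CPM against 1.94 to 21.1. The ARC libraries themselves spanned 3.13 to 108 CPM for the VMH sum and 18.3 to 508 CPM for the ARC sum. The left-out library 35, labelled as chow-fed wild-type male ARC, held 682 CPM of PVN markers (without TMM factors) and 0 counts of ARC and VMH markers among 271324 counts. Both carry a labelled weight of 32.45 g. The left-out library 7 is labelled as chow-fed obese Nnat+/-p female PVN. It held 32.0 CPM of PVN, 151 CPM of ARC and 294 CPM of VMH markers (without TMM factors). The used female libraries ran from 1860 to 4080 CPM of PVN markers. Library 7 had 0 counts of Nrgn among 812815 counts. Male PVN fold changes and correlations that use library 15 are given with and without it. Fewer cells of a type and less RNA per cell cannot be told apart in such bulk samples.

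**Figure D1:**
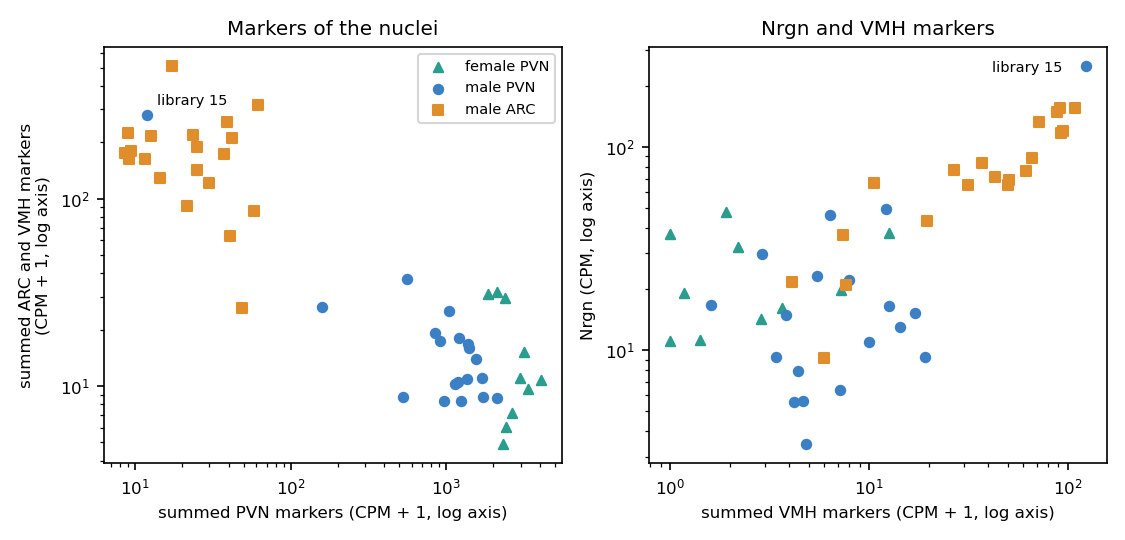
Left, summed CPM of PVN markers (horizontal) against summed CPM of ARC and VMH markers (vertical), each plus 1 on log axes, for the 49 libraries; right, summed VMH markers plus 1 against Nrgn CPM on log axes. Library 15, labelled PVN, lies among the ARC libraries at 10.9 CPM of PVN markers. Among these 49 libraries Nrgn is highest where VMH markers are high. Left-out libraries are not shown.

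Nrgn was higher in most ARC libraries than in most PVN libraries. Its median was 15.0 CPM in the male PVN, 19.6 CPM in the female PVN and 73.5 CPM in the ARC. Library 15 held the highest value, 251 CPM, and the other male PVN libraries ran from 3.44 to 49.7 CPM. Within the male PVN the group medians fell in the order chow wild-type (49.7), HFD Nnat+/-p (15.0), chow obese Nnat+/-p (14.1), chow non-obese Nnat+/-p (9.27) and HFD wild-type (8.31 CPM), and neighbours in that order overlapped. In the ARC the order was chow non-obese Nnat+/-p (111), chow wild-type (107), chow obese Nnat+/-p (97.2), HFD Nnat+/-p (75.2) and HFD wild-type (40.0 CPM), again with overlap between neighbours.

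**Figure D2:**
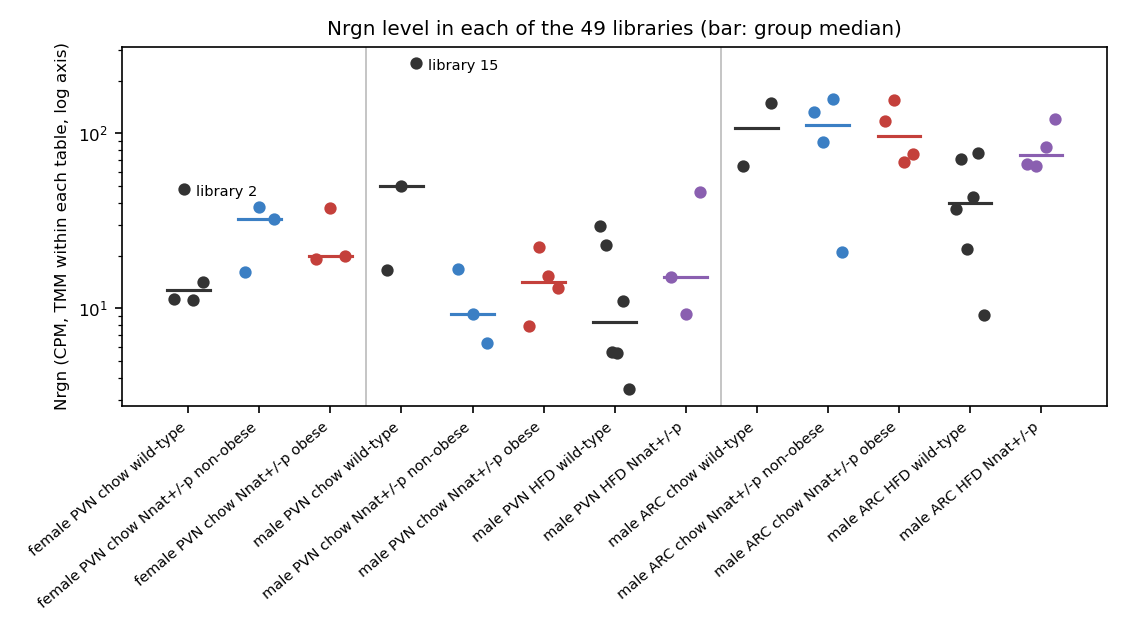
Nrgn in CPM (log axis) in every library used, by group, with a bar at the group median; grey lines separate the 3 count tables. Library 15 stands at 251 CPM and library 2 at 47.7 CPM, above the rest of their wild-type groups, and the ARC libraries lie mostly above those of the PVN.

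Gda and Nptx1 were also higher in the ARC and highest of the male PVN in library 15. Gda encodes guanine deaminase (cypin), which binds the postsynaptic scaffold PSD-95, and its median was 52.8 CPM in the male PVN and 156 CPM in the ARC. Nptx1 encodes a secreted pentraxin that gathers AMPA receptors at synapses, with medians of 27.7 and 71.2 CPM. Camk2a was less uneven, at 161 CPM in the male PVN, 203 CPM in the female PVN and 253 CPM in the ARC. Camk2n1 had medians of 109, 119 and 91.6 CPM in the same order.

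The glutamate transporters differed from each other by orders of magnitude. Per kilobase of exon, the median level of Slc17a6 was 32.9 CPM in the male PVN and 25.8 CPM in the ARC. Slc17a7, the cortical transporter, had medians of 0.0469 and 0.0652 CPM per kilobase there. It was not detected in 4 of 19 male PVN, 4 of 10 female PVN and 7 of 20 ARC libraries. Its highest values were 39.5 CPM (186 counts) in library 14 and 7.15 CPM (27 counts) in library 33, both chow-fed wild-type males.

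The remaining members were scarce in most libraries. Lamp5, which marks some cortical and striatal neurons, had a median of 0.648 CPM in the male PVN and 5.7 CPM in the ARC, with ranges of 0 to 9.51 and 0 to 11.6 CPM. Tcf7l2, a transcription factor of thalamic neurons that is also present in other cells, had medians of 17.0, 13.8 and 14.1 CPM in the male PVN, female PVN and ARC. Prkcd, a protein kinase C of thalamic and amygdalar neurons, stayed between 0.799 and 7.22 CPM in the ARC and reached 21.6 CPM in library 13 of the male PVN. Levels of different members are not comparable in these CPM, since the genes differ in length.

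Nrgn lies at chr9:37544492-37552904 on the minus strand of GRCm38, Gda at chr19:21391307-21473445 on the minus strand and Slc17a6 at chr7:51622006-51671119 on the plus strand. These 3 genes varied together across the ARC libraries, as described further on, and their RefSeq promoters (GRCm38.p6, 250 bases before to 50 after the start) are shown for that reason. Both strands were searched for a cyclic AMP response element, spelled TGACGTCA, which occurred in 1.79% of the 32851 promoters of this length. The GC box, bound by Sp1-type factors and searched as GGGCGG, occurred in 35.7% of them. The TATA box, searched as TATAAA, occurred in 13.6% of them. The binding motif of Nr5a1-type receptors, searched as AAGGTCA, occurred in 4.72% of them. Capitals mark every match in the windows printed here.
Nrgn, chr9:37552696-37552995, minus strand: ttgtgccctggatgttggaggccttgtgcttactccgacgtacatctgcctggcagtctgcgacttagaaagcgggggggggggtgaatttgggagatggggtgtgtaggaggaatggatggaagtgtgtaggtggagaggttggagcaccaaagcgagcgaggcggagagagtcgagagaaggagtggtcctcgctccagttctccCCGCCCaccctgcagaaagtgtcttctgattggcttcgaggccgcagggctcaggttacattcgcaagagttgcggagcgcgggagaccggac
Gda, chr19:21472612-21472911, minus strand: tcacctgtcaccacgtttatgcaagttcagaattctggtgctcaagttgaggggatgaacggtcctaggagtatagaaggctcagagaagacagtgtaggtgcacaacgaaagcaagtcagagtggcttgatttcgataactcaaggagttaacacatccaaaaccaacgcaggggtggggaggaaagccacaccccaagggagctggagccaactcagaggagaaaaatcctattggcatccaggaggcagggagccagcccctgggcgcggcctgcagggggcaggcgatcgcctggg
Slc17a6, chr7:51621580-51621879, plus strand: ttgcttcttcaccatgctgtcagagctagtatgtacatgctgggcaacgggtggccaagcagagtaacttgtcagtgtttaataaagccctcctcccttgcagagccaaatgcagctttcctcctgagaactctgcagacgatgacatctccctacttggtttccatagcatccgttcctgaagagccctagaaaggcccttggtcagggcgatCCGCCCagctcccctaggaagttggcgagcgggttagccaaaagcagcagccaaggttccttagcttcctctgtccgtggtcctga
The Nrgn and Slc17a6 windows each held 1 GC box. The Gda window held none of the 4 motifs. The table held promoters for 7 of the 10 genes. The second start that it lists for Slc17a6 had no match in its window.

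In the male PVN on chow, Nrgn was at 16.6, 49.7 and 251 CPM in the wild-type libraries 13, 14 and 15. The 3 non-obese Nnat+/-p libraries were at 16.7, 9.27 and 6.36 CPM and the 4 obese ones at 7.87, 22.3, 15.2 and 13.0 CPM. Library 13 lay inside the range of the Nnat+/-p libraries, and libraries 14 and 15 lay above it. The log2 fold change against wild-type was -2.84 (SE 0.55) for the obese group and -3.28 (SE 0.63) for the non-obese group, and -1.17 and -1.61 without library 15.

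Gda and Nptx1 were likewise highest in library 15. Gda was at 41.7, 66.0 and 292 CPM in the wild-type libraries and at 28.2 to 57.0 CPM in the 7 Nnat+/-p libraries. For the obese group its log2 fold change moved from -1.62 to -0.30 without library 15, and for the non-obese group from -1.63 to -0.32. Nptx1 was at 22.8, 25.7 and 190 CPM in wild-type and at 20.9 to 53.5 CPM in Nnat+/-p libraries. Its log2 fold change in obese mice changed from -1.07 to 0.66 without library 15, and in non-obese mice from -1.46 to 0.25.

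Camk2a and Slc17a7 were also high in library 14. Camk2a was at 117, 385 and 420 CPM in libraries 13, 14 and 15, with 91.0 to 216 CPM in the Nnat+/-p libraries. Its log2 fold change was -1.15 for the obese group and -0.85 without library 15. Slc17a7 was at 5.96 and 39.5 CPM in libraries 13 and 14. It had 0 counts in library 15, which allows up to 0.489 CPM (3 counts, counting error only, without TMM factors). Its Nnat+/-p values ran from 0.183 to 4.43 CPM, and its log2 fold change for the obese group was -4.12 with and -4.71 without library 15. Over 10 markers of cortical and hippocampal excitatory neurons, such as Tbr1, library 14 summed to 132 CPM, with 75.2 CPM in library 13 and 68.0 CPM in library 15. Library 19, a non-obese Nnat+/-p PVN, summed to 133 CPM over that list, to 239 CPM over 8 thalamus markers, the highest of the male PVN, and held 119 CPM of Tcf7l2. The part of neighbouring tissue in these levels was not tested.

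Lamp5 was at 0, 8.91 and 7.80 CPM in the wild-type libraries and at most 2.42 CPM in the Nnat+/-p libraries. Camk2n1 and Slc17a6 differed little between the chow groups, with log2 fold changes in obese mice of 0.01 and 0.05, or -0.12 and 0.35 without library 15. Across all 10 members the median log2 fold change was -1.11 for the obese group and -1.19 for the non-obese group, beside -0.01 for all genes tested in both. Without library 15 these medians were -0.58 and -0.48. The members were selected on chow PVN values, so their distance from all genes adds no support. Both contrasts share the 3 wild-type libraries.

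**Figure D3:**
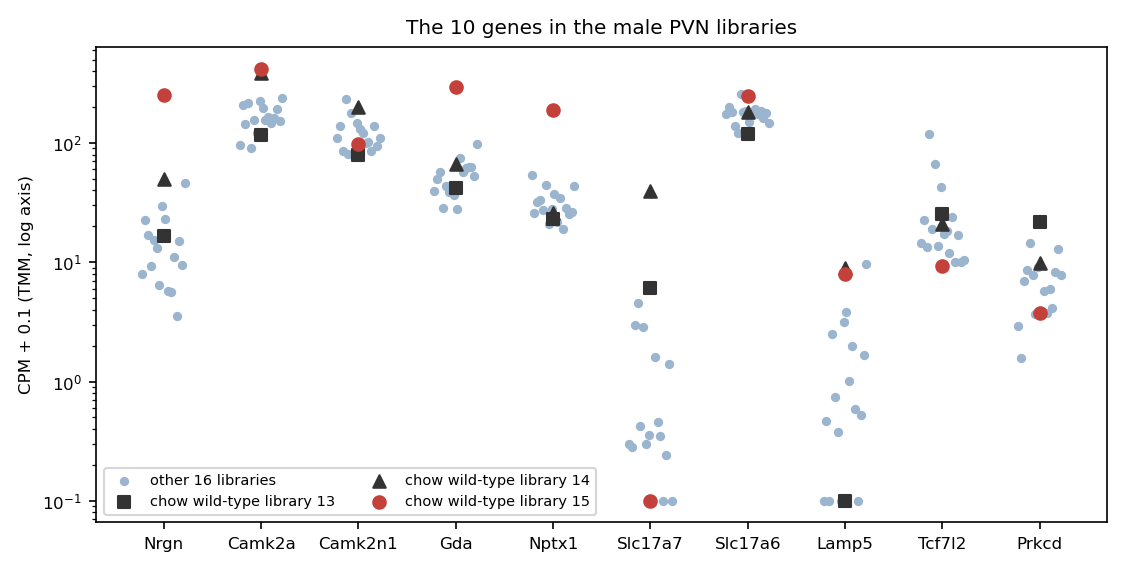
CPM plus 0.1 (log axis) of the 10 genes in the 19 male PVN libraries, with the 3 chow-fed wild-type libraries as dark symbols (13, 14) and a red circle (15). Library 15 is highest for Nrgn, Gda and Nptx1 at 251, 292 and 190 CPM, while Slc17a7 is highest in library 14 at 39.5 CPM.

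Wild-type males on HFD share those chow libraries. Nrgn on HFD was at 3.44 CPM at the lowest, 8.31 CPM at the median and 29.7 CPM at the highest over 6 libraries. The log2 fold change of HFD against chow was -3.02 with library 15 and -1.32 without it. For Gda it was -1.32 and 0.01, and for Nptx1 -1.52 and 0.22.

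In the female PVN the order was the other way for Nrgn. Wild-type libraries were at 11.3, 47.7, 11.1 and 14.2 CPM, non-obese Nnat+/-p libraries at 16.2, 37.7 and 32.4 CPM, and obese ones at 19.2, 37.3 and 19.9 CPM. All 6 Nnat+/-p libraries exceeded 3 of the wild-type ones, and library 2, at 47.7 CPM, exceeded every other. The log2 fold changes were 0.45 for non-obese and 0.27 for obese mice, and 1.24 and 1.05 without library 2. Library 2 had 2130 CPM of PVN markers and 0.91 CPM of VMH markers, inside the range of the other female libraries. For Gda (20.4 CPM) and Nptx1 (7.28 CPM), which were highest of the male PVN in library 15, library 2 was the lowest of the 10. Its ARC marker sum, 30.0 CPM, was the highest of the 10. Its thalamus sum of 217 CPM was shared with library 11, and its endothelial sum of 236 CPM with library 10, as the highest. The part of these in its Nrgn level was not tested. Nptx1 was at 7.28 to 35.1 CPM in wild-type and 27.4 to 116 CPM in Nnat+/-p libraries, a log2 fold change of 1.48 in non-obese and 1.44 in obese mice.

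The comparison of obese with non-obese Nnat+/-p mice asks what goes with body weight at a fixed genotype, and was tested. In the male PVN 0 of 10 members were called at an adjusted p under 0.25 (edgeR quasi-likelihood, Benjamini-Hochberg over all genes), as were 0% of all genes. At an unadjusted p under 0.05 there were 0 of 10, beside 1.66% of all genes. Nrgn differed by 0.43 on the log2 scale (SE 0.58), within the spread of the libraries, and by 0.44 with library 15 left out of the fit.

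In the female PVN 9 members passed the filter on low counts and 0 were called, beside 0% of all genes. Slc17a7 did not pass. Camk2n1, the kinase inhibitor, was at 169, 203 and 120 CPM in the obese group and 108, 54.1 and 133 CPM in the non-obese group. Its log2 fold change was 0.73 (SE 0.34, edgeR unadjusted p = 0.0481), the only member of 9 under 0.05, beside 3.06% of all genes. The 2 groups overlapped.

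On HFD the male PVN comparison of genotypes does not use the chow wild-type libraries as a reference. Nrgn was at 15.0, 9.30 and 46.1 CPM in Nnat+/-p libraries and at 29.7, 23.1, 5.64, 5.58, 11.0 and 3.44 CPM in wild-type libraries. The groups overlapped, and the log2 fold change was 0.84 (SE 0.57), opposite in sign to that on chow. It was -0.12 without library 31 and 0.83 with library 15 left out of the fit. Of 10 members, 0 were called, beside 0.00569% of all genes, and 0 had an unadjusted p under 0.05, beside 0.99%.

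Libraries 23 and 24 of the wild-type HFD group held 529 and 157 CPM of PVN markers against 1250 to 2130 CPM in the other 4. Their inhibitory neuron markers (Slc32a1, Gad1 and Gad2) summed to 486 and 539 CPM against 69.2 to 120 CPM, and the part of tissue around the nucleus was not tested. They were also the highest of their group in Nrgn, so leaving them out raises the estimate by construction. It was then 1.87, given with no test, and 0 members were called. Gda in the same comparison was at 62.5, 52.8 and 97.7 CPM in Nnat+/-p libraries and at 28.0 to 74.3 CPM in wild-type libraries.

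In the ARC on chow, no member passed the threshold in either Nnat+/-p group against wild-type. Nrgn was at 64.9 and 149 CPM in the 2 wild-type libraries, at 133, 88.9, 156 and 20.9 CPM in the non-obese and at 118, 155, 68.6 and 75.9 CPM in the obese Nnat+/-p libraries. The wild-type pair spanned most of this range. The log2 fold change of Nrgn was -0.04 (SE 0.45) in obese and -0.09 (SE 0.45) in non-obese mice.

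Of 9 members tested, 0 were called in obese mice, beside 0.0205% of all genes, and 0 had an unadjusted p under 0.05, beside 2.59%. In non-obese mice the counts were also 0 and 0, beside 0.0136% and 1.9%. With 2 wild-type libraries, leaving out library 34 moved the Nrgn log2 fold change to 0.69 in obese and 0.62 in non-obese mice.

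With obese set against non-obese Nnat+/-p mice in the ARC, 0 of 9 members were called, beside 0.00682% of all genes. Tcf7l2 was at 7.78, 10.4, 10.9 and 9.58 CPM in obese and at 14.2, 26.7, 12.4 and 14.7 CPM in non-obese libraries. These values did not overlap. With libraries 39 and 40 summed into 1, the log2 fold change was -0.60 (edgeR unadjusted p = 0.0888). As deposited, the log2 fold change was -0.79 (SE 0.35, edgeR unadjusted p = 0.0342, adjusted p = 0.999), the only member under 0.05, beside 4.25% of all genes.

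The diet comparison in wild-type ARC was the only tested contrast that called a member. Nptx1 was at 81.3 and 108 CPM on chow and at 21.1, 57.7, 20.3, 41.7, 59.6 and 16.4 CPM on HFD, with no overlap. It fell on HFD by 1.37 on the log2 scale (SE 0.37, edgeR adjusted p = 0.178). It was the 1 member of 10 that was called, beside 1.16% of all genes.

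Another 4 members had unadjusted p under 0.05 and lower estimates on HFD without passing the adjusted threshold. Slc17a6 was at 146 and 218 CPM on chow and at 26.3 to 152 CPM on HFD (log2 fold change -1.06, SE 0.37, edgeR adjusted p = 0.34). Gda was at 153 and 211 CPM on chow and at 56.1 to 140 CPM on HFD, without overlap (-0.98, SE 0.37, edgeR adjusted p = 0.381). Nrgn was at 64.9 and 149 CPM on chow and at 9.16 to 77.2 CPM on HFD (-1.29, SE 0.49, edgeR adjusted p = 0.384). Camk2a differed by -0.53 (SE 0.23). These 5 of 10 members compare with 8.54% of all genes at that p and with 4.46% that were also lower on HFD. The 5 varied together across the ARC libraries, as described further on, so they are not 5 independent results.

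Of 34 other postsynaptic genes, 32 had lower and 2 had higher estimates on HFD, while 51.4% of all genes had higher ones. Their median log2 fold change was -0.38 against 0.02 for all genes. The 3 called, beside 1.16% of all genes, were all lower, namely Shank1, a scaffold protein (-1.04, edgeR adjusted p = 0.112), Hpca, the calcium sensor hippocalcin (-1.20, adjusted p = 0.178), and Ddn, a dendritic protein (-1.34, adjusted p = 0.233). Calls over all genes went from 182 to 3 without library 33 and to 12 without library 34.

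General neuron markers had lower estimates in 3 of 4 with 0 called, among them Snap25, a synaptic fusion protein (-0.64, edgeR adjusted p = 0.306), and Rbfox3, the neuronal nuclear antigen NeuN (-0.81, adjusted p = 0.347). Their sum was 823 and 834 CPM on chow and 382 to 751 CPM on HFD. Fezf1, a VMH transcription factor, fell by 2.25 on the log2 scale (edgeR adjusted p = 0.19), and the VMH sum was 49.3 and 87.4 CPM on chow against 3.13 to 42.2 CPM on HFD. Nr5a1, the defining VMH receptor, had an estimate of -1.86 (adjusted p = 0.496). The myelin genes Mobp (-1.25) and Mbp (-1.09), markers of oligodendrocytes, were called lower. ARC markers had higher estimates in 5 of 5 tested genes with 0 called, and their sum was 41.3 and 40.5 CPM on chow against 56.1 to 508 CPM on HFD. Markers of inhibitory neurons were at 125 and 250 CPM on chow and 278 to 414 CPM on HFD, with 0 of 3 called. The part of these markers in the members' difference was not tested.

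Leaving out either chow wild-type library ended the call of Nptx1 (adjusted p = 0.679 without library 33 and 0.852 without library 34, edgeR). Including library 35, whose markers go against its label, gave an Nptx1 log2 fold change of -1.03 (edgeR adjusted p = 0.287). In that fit Slc17a6 was called in its place (-1.06, edgeR adjusted p = 0.222), and Nrgn was at -0.82 (adjusted p = 0.595).

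**Figure D4:**
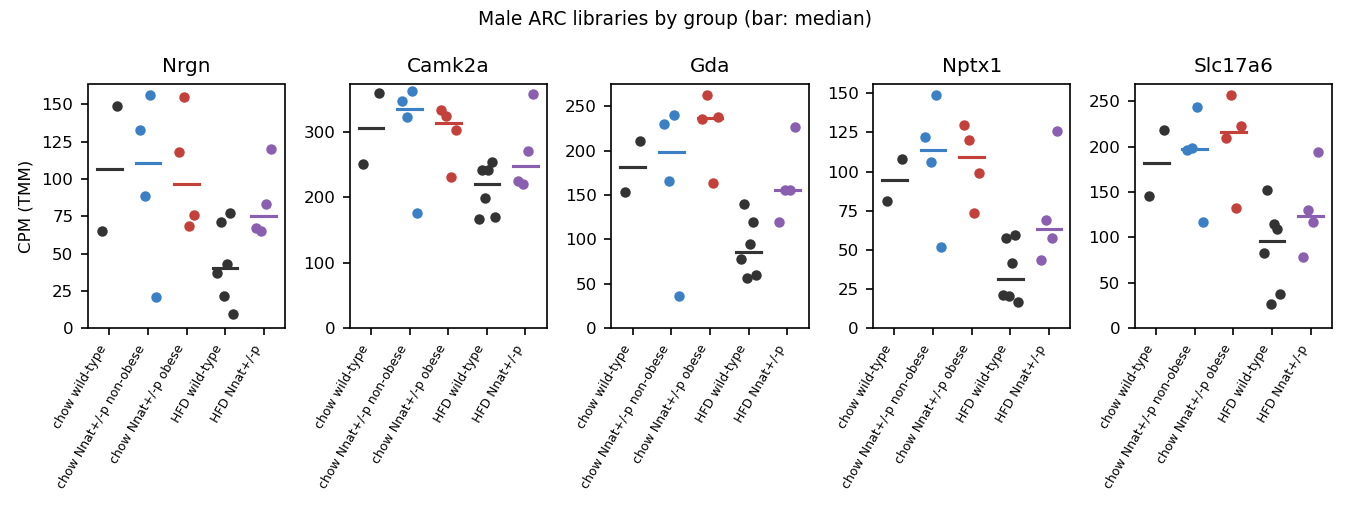
CPM of 5 members in the 20 male ARC libraries by group, each point a library and each bar the group median, with every axis starting at 0. The HFD wild-type libraries are the lowest group for each gene, with an Nrgn median of 40.0 CPM, and library 43 is the low point among chow-fed non-obese Nnat+/-p libraries.

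On HFD the ARC of Nnat+/-p mice had higher estimates than wild-type for 8 of 10 members, beside 47.9% of all genes. Nptx1 was at 43.4, 68.9, 57.7 and 126 CPM in Nnat+/-p and at 16.4 to 59.6 CPM in wild-type libraries, a log2 fold change of 1.02 (SE 0.31, edgeR unadjusted p = 0.00247, adjusted p = 0.999). Gda was at 119, 156, 156 and 226 CPM against 56.1 to 140 CPM (0.84, SE 0.30, edgeR unadjusted p = 0.00892). Nrgn was at 66.9, 65.3, 83.4 and 120 CPM against 9.16 to 77.2 CPM (0.95, SE 0.40, edgeR unadjusted p = 0.0253). Each of these pairs of groups overlapped.

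None of the 10 was called, beside 0.0127% of all genes. The 3 with an unadjusted p under 0.05 compare with 4.54% of all genes, and with 2.52% that were also higher. These 3 also varied together across the ARC libraries, so they are not independent results. The members' median log2 fold change was 0.34 against -0.02 for all genes. Of the 34 postsynaptic genes 29 had higher estimates and 0 were called. VMH markers summed to 9.67, 30.7, 36.2 and 94.3 CPM in Nnat+/-p and 3.13 to 42.2 CPM in wild-type libraries. Of the 3 VMH markers, Fezf1 and Nr5a1 had higher estimates (1.39 and 1.56) and Sox14 a lower one, with 0 called. Oligodendrocyte genes had higher estimates in 5 of 5, among them Mobp (0.57) and Mog (0.97), with 0 called. Estimates were also higher for 4 of 4 microglia, 3 of 3 endothelial and 3 of 4 astrocyte markers. They were lower for 4 of 5 thalamus and 5 of 6 cortical and hippocampal markers, with 0 called in any of these lists. General neuron markers were higher in 4 of 4, with Snap25 at 0.44 and Rbfox3 at 0.53, and inhibitory markers lower in 3 of 3, with Gad1 at -0.84, and 0 called in either list. PVN markers had higher estimates in 3 of 5 and lower ones in 2, with 0 called. The higher ones included the peptide genes Oxt (2.78) and Avp (2.27). Library 53 was the highest of the 10 HFD libraries for them and for Nrgn, Camk2a, Gda, Nptx1 and Slc17a6. The part of these markers in the result was not tested. This comparison shares its 6 wild-type libraries with the diet comparison.

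The difference between diets in the genotype effect was tested directly in the ARC. For Nptx1 the interaction was 0.85 on the log2 scale (SE 0.48, edgeR unadjusted p = 0.0879) and for Nrgn 1.02 (SE 0.63, edgeR unadjusted p = 0.115). Of 10 members, 0 were called, beside 0.0127% of all genes, and 0 had an unadjusted p under 0.05, beside 3.83%.

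Across the 20 ARC libraries Nrgn varied together with several members. On log2 CPM, Pearson's r with Nrgn was 0.89 for Camk2a, 0.91 for Gda, 0.89 for Nptx1 and 0.85 for Slc17a6, with Spearman's rho of 0.94, 0.89, 0.88 and 0.82. Camk2n1 (r 0.37, rho 0.05), Lamp5 (0.15, 0.42), Prkcd (0.07, -0.07) and Tcf7l2 (-0.35, -0.44) did not share this, nor did the sparse Slc17a7. The points share one table and one set of scaling factors, and differ in group and total.

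The same held within genotypes and diets. For Gda, r was 0.92 in the 8 wild-type and 0.94 in the 12 Nnat+/-p libraries, and 0.92 in chow and 0.91 in HFD libraries. For Nptx1 the values were 0.92, 0.77, 0.93 and 0.91. Without libraries 43 and 49, the 2 farthest from the median of Nrgn, r was 0.88 for Camk2a, 0.93 for Gda and 0.92 for Nptx1.

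Among the marker sums, that of the VMH had r 0.90 and rho 0.90 with Nrgn over the 20 ARC libraries, with r of 0.88 in wild-type and 0.87 in Nnat+/-p libraries. The ARC sum had r -0.11, the sum over cortical and hippocampal excitatory neurons r 0.33, and the inhibitory neuron sum r -0.77. The lowest Nrgn values, 9.16, 20.9, 21.7 and 36.9 CPM in libraries 49, 43, 46 and 44, came with VMH sums of 4.96, 6.69, 3.13 and 6.40 CPM. The highest, 156, 155 and 149 CPM in libraries 40, 37 and 34, came with 108, 90.2 and 87.4 CPM.

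**Figure D5:**
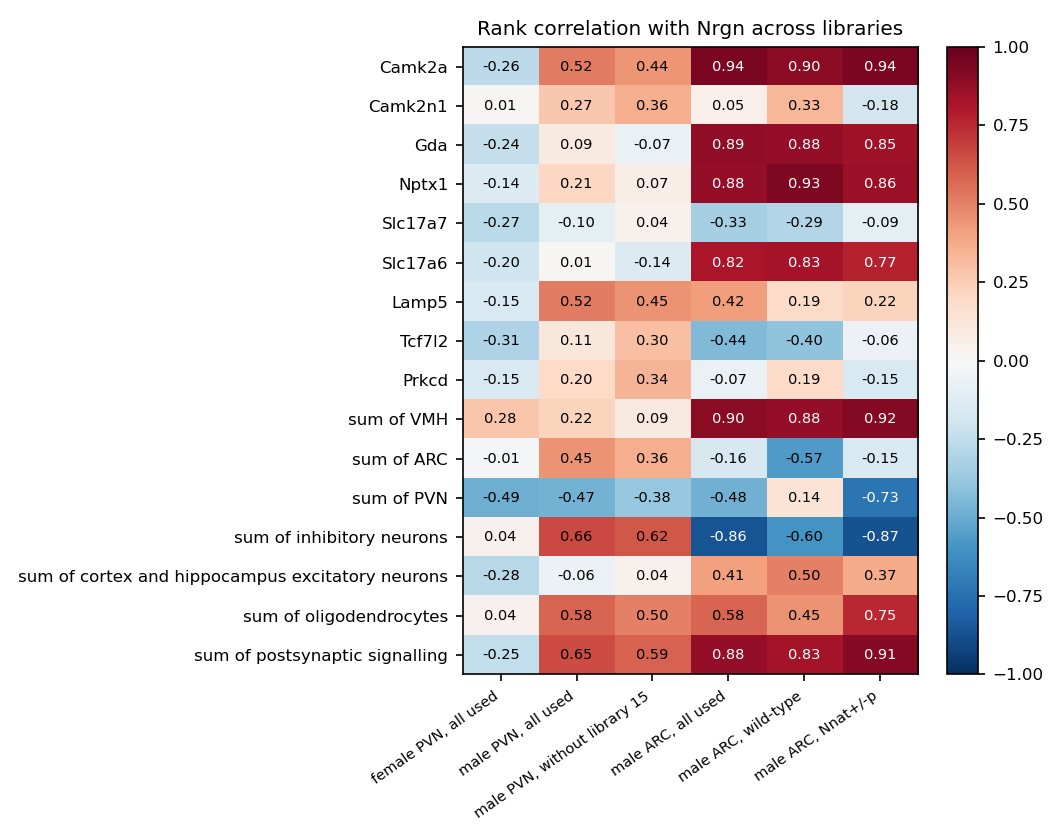
Spearman's rho with Nrgn across libraries for the other 9 members and for 7 summed gene lists (rows), by count table and subset (columns), coloured from -1 to 1. Camk2a, Gda, Nptx1, Slc17a6 and the VMH sum lie between 0.82 and 0.94 over all ARC libraries, while in the male PVN without library 15 Gda is at -0.07 and Camk2a at 0.44.

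In the male PVN the correlations of Gda, Nptx1 and the VMH sum rested on library 15. Over 19 libraries r with Nrgn was 0.58 for Gda, 0.64 for Nptx1 and 0.56 for the VMH sum, and over the other 18 it was 0.07, 0.13 and 0.12. Camk2a had r 0.72 with and 0.57 without library 15, and Lamp5 0.66 and 0.59. The inhibitory neuron sum had r 0.57 with and 0.63 without it, the reverse in sign of the ARC. In the 10 female libraries r was -0.37 for Camk2a, -0.34 for Gda and -0.33 for Nptx1, and the sum of endothelial markers had r 0.75.

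The genes whose ranks were most like those of Nrgn differed between the tables. Among 15752 genes in the ARC they were Camk2a (rho 0.941), Calb1, a calcium buffer (0.934), App, the amyloid precursor (0.932), Tnfrsf8 (0.932) and Hapln4, a link protein of perineuronal nets (0.929). Fezf1 and Nr5a1 had rho of 0.887 and 0.869, exceeded by 0.197% and 0.362% of the genes. In the male PVN they were Nr2f2, a nuclear receptor (0.96), Camkv, a kinase-like calmodulin-binding protein (0.805), Htr1b, a serotonin receptor (0.796), Cacna1i, a T-type calcium channel (0.786), and Plpp3 (0.784). Without library 15 these 5 had rho of 0.748 to 0.953. In the female PVN, with 10 libraries, they were Depdc5, Xkr4, Rusc1, Olfr1372-ps1 and Soga3, at rho of 0.939 to 0.964. Camkv had rho 0.928 in the ARC and -0.358 in the female PVN, and Nr2f2 had 0.768 and 0.285.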

How the data were processed

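Libraries were made by the authors from laser-captured nuclei with a stranded total RNA kit and sequenced as single 50 base reads. Alignment was to GRCm38 with STAR 2.5.0a, per the labels and the study's methods, and the strand setting of the counting is not given in the sources used here. The deposited values are raw counts per gene, not normalized, in 1 table for each of female PVN, male PVN and male ARC. The members and gene lists were chosen with earlier results of these data known. All 10 members were described, with the called genes of each fixed list and the 5 genes nearest to Nrgn in rank per table.

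Counts were tested with edgeR 4.0.16 (R 4.3.3), using TMM factors, filterByExpr with a minimum count of 10, and quasi-likelihood fits. Benjamini-Hochberg adjustment ran over all genes of a fit, and genes were called at an adjusted p under 0.25, the threshold of the study. Chow comparisons were fitted over 3 groups and HFD comparisons over 5. SE is the log2 fold change over the root of F. DESeq2 1.42.0, limma 3.58.1 (voom with quality weights), other scalings, filters and libraries were alternatives. Correlations were taken on the log2 CPM scale (prior count 2). The fits were tested on data simulated from the chow ARC libraries with large changes only, so smaller differences and other comparisons were not examined. Libraries with totals under 25% of their table's median were left out. Intervals and floors cover counting error only. Some genes of the marker lists are not reported here.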

Additional observations from a re-analysis of the deposited data

Results flagged for a closer look

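Of 70 combinations of a gene and a group of 4 to 10 libraries, 8 had a library far from the others of its group. Chance gives about 1 in 20 for normally distributed values. These CPM were not transformed, all 8 libraries were the highest of their group, and combinations share libraries. The 8 are therefore not read as more than chance. Nrgn in the female wild-type PVN was at 47.7 CPM in library 2, with the next library at 14.2 CPM. Chow PVN values, that one among them, were used to select the members, so they add no support here. Camk2a in the same group was at 228 CPM in library 4 (next 208 CPM). Slc17a7 was at 1.52 CPM in library 25 of the HFD wild-type male PVN (next 0.356 CPM) and at 2.77 CPM in library 21 of the obese Nnat+/-p male PVN (next 0.324 CPM). Library 21 was also highest in its group for Tcf7l2, at 66.4 CPM (next 22.3 CPM). In the ARC, Lamp5 was at 8.39 CPM in library 49 of the HFD wild-type group (next 5.76 CPM). Library 39 of the non-obese Nnat+/-p ARC stood apart for Tcf7l2, at 26.7 CPM (next 14.7 CPM), and for Prkcd, at 7.22 CPM (next 2.21 CPM). Groups of 3, which hold library 15, were not examined in this way.

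Libraries left out of the comparisons held 3 values above the highest wild-type library of their table, in CPM without TMM factors. Prkcd was at 71.4 CPM in library 7 (58 counts) against 16.0 CPM. Camk2n1 was at 195 CPM in library 35 (53 counts) against 115 CPM, and Slc17a6 at 380 CPM in the same library (103 counts) against 219 CPM.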

How the results depend on the processing

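The call of Nptx1 in wild-type ARC on HFD depended on the setting. In place of 1 member called there were 0 at an adjusted p under 0.05 and 3 with limma voom. There were 4 when every gene with a total count over 1 was tested, and 2 with only the 2 groups fitted. Without libraries 44 and 51, whose labelled weights conflict between nuclei, there were 0. Leaving out 1 wild-type HFD library at a time gave 0 to 4 calls, with 0 without library 44 or 46 and 4 without library 45. Over all genes those 3 fits called 78 of 15763, 50 of 15695 and 253 of 15587, in that order. Testing every gene also gave 4 members called in the HFD ARC genotype comparison in place of 0, and took the calls over all genes from 2 to 64 there and from 182 to 547 in the diet comparison. Over all genes the diet comparison called 358 with DESeq2, 700 with voom, 678 with only the 2 groups fitted, 499 with library 35, 276 with libraries 39 and 40 summed, and 44 without the libraries of conflicting weight. Library 5 held 2302 counts, and the markers of library 7 went against its label. Including libraries 5 and 7 gave 1 member called in obese against non-obese females in place of 0, and 622 genes in place of 0. DESeq2 called 62 genes there, and testing every gene called 229. The cause of these shifts was not tested.

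Small Nrgn differences changed sign. In obese against non-obese females the log2 fold change of -0.18 became 0.07 with voom and ran from -0.56 to 0.06 with 1 library left out. In the HFD PVN, 0.84 ran from -0.12 to 1.27. In the chow ARC the obese contrast with wild-type became 0.13 with voom and 0.45 with library 35, and ran from -0.51 to 0.69. The non-obese contrast became 0.39 with library 35 and ran from -0.58 to 0.62, and obese against non-obese ran from -0.29 to 0.37. None of these passed the threshold. Of the alternative counts of members called, 116 stayed within 1.5 times the main count, 6 were higher and 6 lower. Comparisons with no member called in either setting are counted among the 116. The main fit called a member only in the wild-type ARC diet comparison, so all 6 lower counts belong to it. Alternatives that leave out library 15 or libraries 23 and 24 or split the correlations by diet were chosen after seeing the data. For the interaction, RLE and DESeq2 were run and no library was left out. No paired analysis was possible because the groups of each comparison share no replicate number and hold mice of different genotype, weight class or diet. Labelled weights match PVN with ARC libraries, which were not tested against each other. The 2 wild-type chow ARC libraries and the 1479953 counts of the smallest library limit what could be detected.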
